A study of Homo sapiens with 4 samples.

Results

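The neurexins, neuroligins and contactin-associated proteins (CNTNAPs) are families of neuronal surface proteins that hold synapses and axonal domains together. They were represented here by 9 genes, picked out by gene symbol, a choice made with earlier results of these data known: 2 neurexins (NRXN2 and NRXN3), 2 neuroligins (NLGN1 and NLGN2) and 5 CNTNAP genes (CNTNAP1 to CNTNAP5). These are 9 of the 36601 features counted in nuclei of human enteric ganglioids, and all 9 passed the filter on low counts in enteric neurons.

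Neurexins sit in the presynaptic membrane and bind neuroligins on the opposite side of the synaptic cleft. This bridge, together with scaffold proteins inside each cell, helps to align release sites with receptors, and alternative promoters and splicing give neurexins many forms. CNTNAP proteins share the domain plan of neurexins, but some act along the axon, where they pair with contactins and help to place potassium channels beside the node of Ranvier. In the gut, enteric neurons form such synapses with each other within ganglia.

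Ganglioids are clusters grown in suspension that hold enteric neurons together with their progenitors, here of the stage the submitters call stage 1, and all came from H9, an embryonic stem cell line in wide use. The RNA of single nuclei was sequenced in 2 controls and in 2 PP121 samples. The latter had received 2 µM PP121, which blocks a range of receptor tyrosine kinases, between days 15 and 20. Each sample pooled ganglioids. The labels number the replicates but do not say whether control and PP121 samples of the same number came from the same differentiation. All 4 samples share the cell line, the suspension culture and the induction of enteric neural crest, so differences between them describe 1 line. In the deposited annotation, replicate 1 of each group is dated day 42 and replicate 2 day 38, whereas the study describes a single day that matches neither date. Each dated day therefore held 1 control and 1 PP121 sample, and the day cannot be told apart from a differentiation that its samples may share.

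The authors annotated 4283 and 3030 nuclei of control replicates 1 and 2 and 4587 and 2912 nuclei of PP121 replicates 1 and 2, with medians of 6289 to 7071 unique molecular identifiers (UMIs) per nucleus. Of the 14812 annotated nuclei, 6557 were enteric neurons, and the rest were progenitor 1, progenitor 2, mesenchymal, epithelial and unknown nuclei. Levels are given as CPM (count per 1e+06), that is, the UMIs of a gene over all UMIs, scaled to 1e+06, summed over the nuclei of a class and sample. The summed level of 8 neuronal markers was 2318 and 2313 CPM in control neurons and 2483 and 2730 CPM in PP121 neurons. In any other class it was at most 1198 CPM, in epithelial nuclei of control replicate 2. In neurons the sum was thus higher in both PP121 samples, and its part in the differences with PP121 was not tested. Markers of glia summed to 19.4 to 28.5 CPM in the neurons. The mesenchymal class held 408 and 422 nuclei on day 38 and 40 and 33 on day 42, and at most 8 cell barcodes were shared between any pair of samples. In sums over nuclei, fewer nuclei with a transcript and fewer copies per nucleus cannot be told apart. Where 4 values are listed, they stand in the order control replicate 1, control replicate 2, PP121 replicate 1, PP121 replicate 2.

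The genomic setting of the genes differs widely. NRXN3 (coordinates in GRCh38.p14) covers chr14:78170373-79868291, CNTNAP2 chr7:146116801-148420998, NLGN1 chr3:173395952-174294372 and CNTNAP5 chr2:124025287-124921219, all on the plus strand. These 4 are long genes. NRXN2 (chr11:64606174-64723197, minus strand), CNTNAP3 (chr9:39064710-39288167, minus strand) and CNTNAP4 (chr16:76277401-76560757) are shorter, and NLGN2 (chr17:7404653-7419860) and CNTNAP1 (chr17:42682531-42699993) span less than 20 kb each. The RefSeq table of promoters matched 8 of the 9 genes. The 250 bases before the start are shown for the 4 long genes, which were called higher with PP121 in nitrergic neurons in the paired fit described below, as was CNTNAP4. The windows run from 5′ to 3′ on the gene's strand, and capitals mark GGGCGG or its reverse complement CCGCCC, the core of the GC box bound by SP1, and the palindromic E-box CAGCTG; neighbouring matches can overlap and then run together. NRXN3 has 3 listed starts, of which the first and the last lie 1109 kb apart and belong to the long and short forms of the protein. NRXN3 first start, chr14:78170123-78170372: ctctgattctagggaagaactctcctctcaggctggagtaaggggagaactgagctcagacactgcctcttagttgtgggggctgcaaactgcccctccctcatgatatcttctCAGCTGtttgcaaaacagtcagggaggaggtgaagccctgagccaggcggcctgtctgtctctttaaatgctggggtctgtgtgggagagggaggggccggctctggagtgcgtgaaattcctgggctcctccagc
NRXN3 last start, chr14:79279130-79279379: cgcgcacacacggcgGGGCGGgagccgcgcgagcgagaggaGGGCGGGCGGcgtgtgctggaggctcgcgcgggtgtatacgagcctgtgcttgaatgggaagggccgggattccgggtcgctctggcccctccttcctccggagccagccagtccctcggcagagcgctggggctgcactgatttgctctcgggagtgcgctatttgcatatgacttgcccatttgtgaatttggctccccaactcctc
NLGN1 first start, chr3:173395702-173395951: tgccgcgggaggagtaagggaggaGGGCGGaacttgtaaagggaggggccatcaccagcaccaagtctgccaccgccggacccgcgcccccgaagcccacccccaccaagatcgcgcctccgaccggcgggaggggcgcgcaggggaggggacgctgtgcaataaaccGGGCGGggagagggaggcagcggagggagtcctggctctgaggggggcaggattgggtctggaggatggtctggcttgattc
CNTNAP2, chr7:146116551-146116800: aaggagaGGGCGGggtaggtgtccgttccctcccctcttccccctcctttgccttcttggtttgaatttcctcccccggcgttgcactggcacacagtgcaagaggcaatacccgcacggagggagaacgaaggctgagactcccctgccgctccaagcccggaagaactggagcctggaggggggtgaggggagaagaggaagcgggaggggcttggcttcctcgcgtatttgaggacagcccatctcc
CNTNAP5, chr2:124025037-124025286: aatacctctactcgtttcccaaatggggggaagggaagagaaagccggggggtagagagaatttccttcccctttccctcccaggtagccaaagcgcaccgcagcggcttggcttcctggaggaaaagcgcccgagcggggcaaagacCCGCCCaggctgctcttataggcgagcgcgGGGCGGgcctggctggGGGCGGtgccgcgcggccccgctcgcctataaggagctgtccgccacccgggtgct

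Of the 5 windows shown, only the first of NRXN3 held the E-box. Among windows not shown, those of NLGN2, CNTNAP3 and CNTNAP4 also held the E-box, 1 time each. The E-box was found in 4911 of the 35116 listed windows of this length. The GC-box core was counted 3 times each in the last NRXN3 window and in CNTNAP5, 2 times in the first NLGN1 window and 1 time in CNTNAP2, and 42.6% of the listed windows held it at least 1 time. The first NRXN3 window held 3 CpG dinucleotides and the last held 24. These matches are descriptions of letters only, and the counts give 1 value per gene, so use of either start was not measured.

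NRXN3, a presynaptic organiser, was far more abundant in neurons than in any other class. Control neurons held 5243 CPM in replicate 1 and 4215 CPM in replicate 2, and PP121 neurons 6505 and 3935 CPM (4974 ± 1165 CPM, SD, n = 4). Epithelial nuclei, 92 in all, came next on average with 627 ± 650 CPM (97.0 to 1568 CPM), and the neuron mean was 7.93 times that. These nuclei held 756 to 1198 CPM of the 8 neuronal markers and 30.9 to 59.8 CPM of 3 epithelial markers. Progenitor 1 held 311 ± 50.3 CPM and progenitor 2 held 468 ± 154 CPM, so the neuron mean was 16.0 and 10.6 times theirs. The neuron samples lay above every sample of every other class. NRXN3 was among the markers with which the study named the neurons, and the classes are clusters built on all genes, so this order is a description without a test.

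NRXN2, the other neurexin measured, was also highest in neurons. It stood at 82.6 and 68.3 CPM in control neurons and 75.6 and 68.2 CPM in PP121 neurons, and its mean of 73.7 ± 6.91 CPM was 2.59 times that of progenitor 2 and 2.69 times that of progenitor 1. No sample of another class reached the neuron range of NRXN2. In mesenchymal nuclei its class mean was lowest, at 9.51 ± 2.28 CPM.

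NLGN1, the neuroligin best known from excitatory synapses, was not restricted to neurons. Its neuron level was 814 and 722 CPM in the controls and 933 and 921 CPM with PP121 (mean 847 ± 99.4 CPM). The unknown class followed with 757 ± 89.4 CPM and progenitor 2 with 647 ± 116 CPM, and the ranges of these 3 classes overlapped. Progenitor 1 was lowest, at 210 ± 113 CPM. In mesenchymal nuclei NLGN1 split by day, with 84.1 and 60.6 CPM on day 42 against 605 and 1126 CPM on day 38, but the day 42 sums hold only 40 and 33 nuclei.

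NLGN2, which organises inhibitory synapses, was low and even. Its class means ran from 13.1 ± 4.88 CPM in the unknown class to 26.1 ± 2.24 CPM in neurons, and neurons overlapped with the next class, progenitor 2 (21.0 ± 5.31 CPM). CNTNAP1, the paranodal member also known as Caspr, varied as little, with 23.9 ± 4.68 CPM in progenitor 1, 20.9 ± 1.05 CPM in neurons and 17.2 ± 1.81 CPM in progenitor 2.

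CNTNAP2 (Caspr2), which gathers potassium channels beside the node, had its highest class mean outside the neurons. Mesenchymal nuclei held 803 ± 426 CPM, with 533, 464, 1400 and 817 CPM, against 679, 526, 748 and 682 CPM in the neurons of the same samples. The mesenchymal values of 533 and 1400 CPM come from only 40 and 33 nuclei. In the larger day 38 sums (408 and 422 nuclei), mesenchymal nuclei lay below the neurons in control replicate 2 (464 against 526 CPM). They lay above them in PP121 replicate 2 (817 against 682 CPM). The order of the classes thus differed between these larger sums. The ranges of both classes overlapped with each other, and the neurons also overlapped with the unknown class (536 ± 214 CPM). Progenitor 1 held 54.7 ± 17.7 CPM, and the neuron mean of 659 ± 94.3 CPM was 12.1 times that.

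CNTNAP5, a member of less well-known function, was highest in neurons. Its neuron level was 250 and 198 CPM in controls and 405 and 234 CPM with PP121 (272 ± 91.5 CPM), which was 10.7 times the mean of progenitor 2 and 21.9 times that of progenitor 1. All 4 neuron samples lay above the next class, epithelial nuclei, at 38.4 ± 8.30 CPM from 92 nuclei in all.

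CNTNAP4, linked in the brain to inhibitory and dopaminergic synapses, reached 27.9, 18.6, 19.7 and 32.3 CPM in the neurons. In the unknown class the 4 samples held 24, 0, 31 and 107 UMIs, and 106 of the last 107 came from 10 nuclei. No CNTNAP4 UMI was found among the 92 epithelial nuclei, where 3 counts, the limit that a count of 0 allows, would be 10.0 to 46.4 CPM per sample. CNTNAP3 was the only gene of the 9 whose neuron mean, 5.35 ± 1.61 CPM, lay below those of 4 other classes. Its level in the unknown class was 62.3, 46.9, 88.2 and 85.3 CPM. CNTNAP3 has near-identical copies in the genome, and how reads were divided among them is not stated, so its counts are uncertain.

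**Figure D1:**
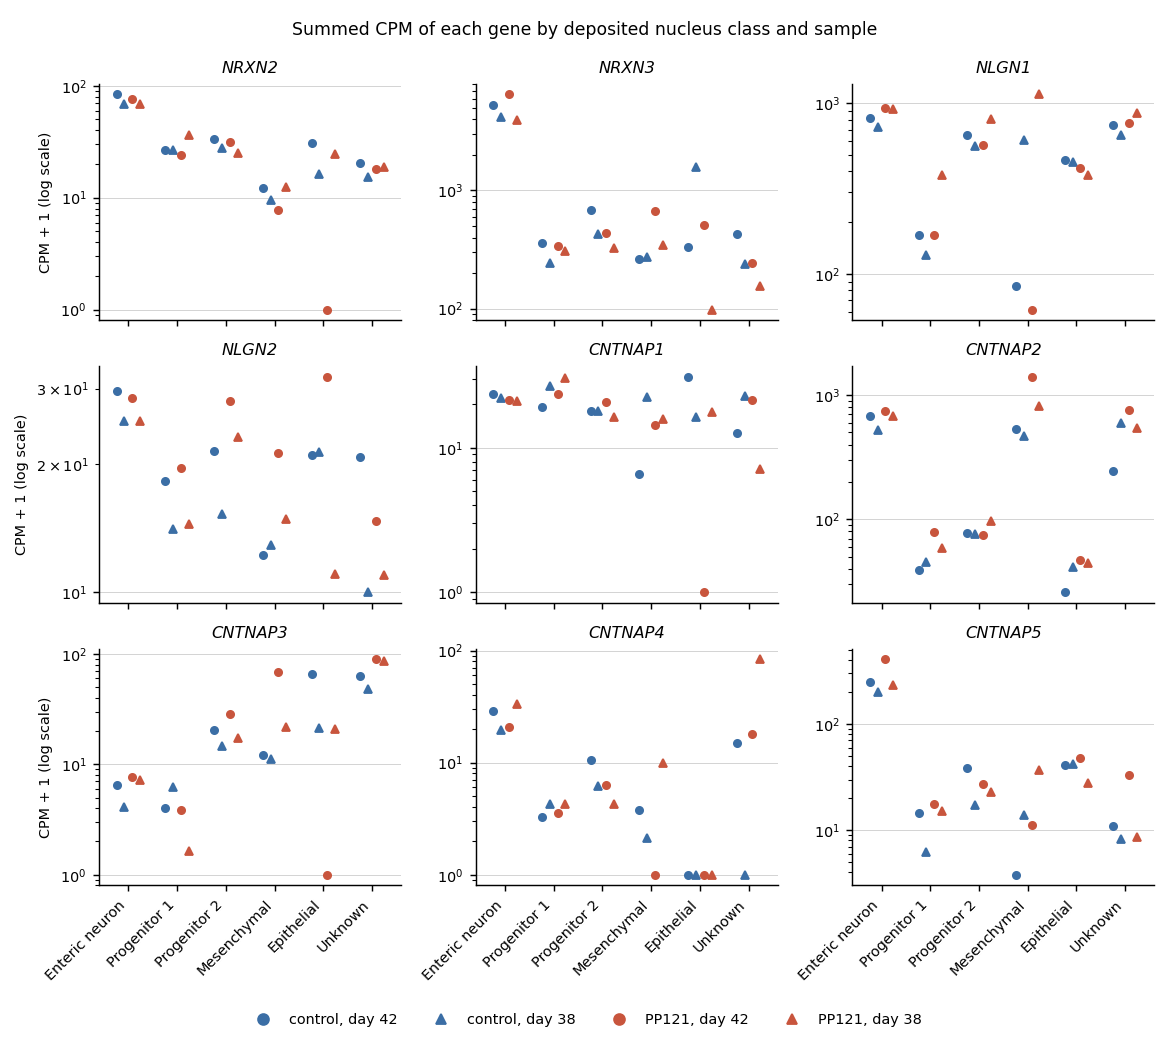
Level of each of the 9 genes (CPM + 1, log axis) in the 6 deposited nucleus classes, 1 point per sample, blue for control and red for PP121, circles for day 42 and triangles for day 38. NRXN3, NRXN2 and CNTNAP5 stand highest in enteric neurons in every sample, CNTNAP3 stands highest in the unknown class on average, and NLGN1 in mesenchymal nuclei separates by day.

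Levels of unlike genes were set side by side per length. UMIs of a 3′ kit need not scale with length, and intronic reads may or may not have been counted, so the order is a description that depends on the length used. Per kb of exon, NRXN3 led in neurons with 320 CPM, ahead of NLGN1 (83.5), CNTNAP5 (49.9) and CNTNAP2 (39.5), and the remaining genes lay between 0.56 and 6.96 CPM. Per 100 kb of gene span, NRXN3 again led with 293 CPM, but NLGN2 (172 CPM) and CNTNAP1 (120 CPM), the shortest genes, came next, and CNTNAP2 held 28.6 CPM. NRXN3 was thus first and CNTNAP3 last on either scale.

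Within the neurons the long genes differed strongly between the deposited subtypes, which are named separately in control (EN 1 to EN 8) and PP121 samples (EN A to EN I) and were not matched here. Among subtypes with at least 25 nuclei in a sample, NRXN3 was highest in EN 2, with 10877 and 10696 CPM, and lowest in EN 8, with 855 and 557 CPM, a 15.3-fold range of means. In the PP121 samples it ran from 15345 and 11199 CPM in EN B to 350 and 447 CPM in EN I. CNTNAP2 followed another order. It was highest in EN 8 (2483 and 1201 CPM), where NRXN3 was lowest, and in EN H (1525 and 1574 CPM), and lowest in EN 6 (234 and 190 CPM) and EN F (113 and 56.3 CPM).

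NLGN1 peaked in EN 5, at 2011 and 1672 CPM, and in EN E, at 2248 and 3276 CPM, and its range across subtypes was 4.79-fold in control and 4.78-fold in PP121 samples. CNTNAP5 was highest in EN 3 (540 and 708 CPM) among the control subtypes. Among the PP121 subtypes it reached 2017 CPM in EN D, where only PP121 replicate 1 held enough nuclei (114), and 922 and 1990 CPM in EN C, against 28.8 and 12.4 CPM in EN F. NRXN2, NLGN2 and CNTNAP1 varied by 1.51 to 3.46 times across subtypes. CNTNAP4 varied by 39.5 times in control and 83.9 times in PP121 samples, on few UMIs. Across the 8 control subtypes, Pearson's r between NRXN3 and CNTNAP2 was -0.52 (Spearman's rho -0.33), and across the 9 PP121 subtypes it was -0.32 (rho -0.22). These coefficients describe subtypes that share libraries and were clustered on all genes.

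**Figure D2:**
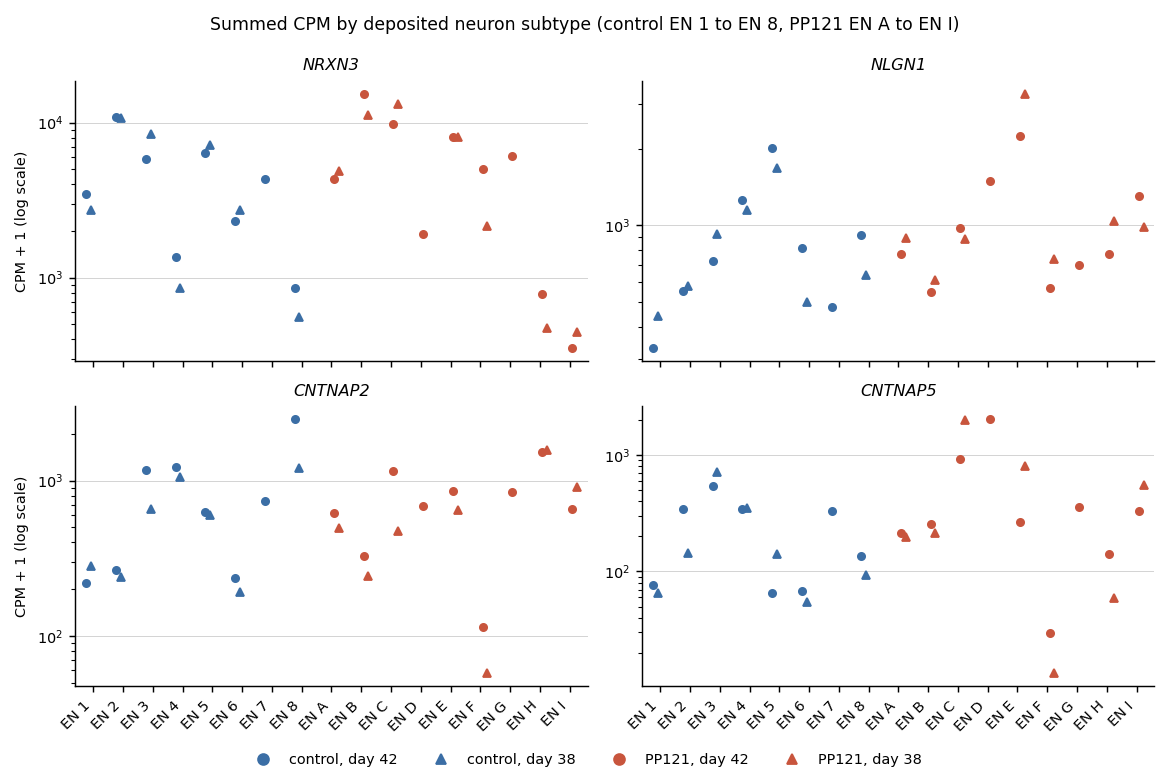
Level (CPM + 1, log axis) of NRXN3, NLGN1, CNTNAP2 and CNTNAP5 in each deposited neuron subtype with at least 25 nuclei in a sample, 1 point per sample (blue control, red PP121, circles day 42, triangles day 38). NRXN3 is highest in EN 2 and EN B, whereas CNTNAP2 is highest in EN 8 and EN H, where NRXN3 is low.

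Transmitter identities were deposited for 6321 of the 6557 neurons, and a neuron can carry several. They rest on values imputed from all genes, so levels by identity are again descriptions. NRXN3 was highest in GABAergic (9559 ± 2650 CPM) and cholinergic neurons (9369 ± 2207 CPM) and lowest in catecholaminergic (3555 ± 1054 CPM) and nitrergic neurons (3673 ± 1342 CPM). The ranges of the GABAergic and cholinergic identities overlapped, as did those of the lowest pair. CNTNAP5 was likewise highest in cholinergic neurons, at 671 ± 226 CPM, and lowest among the 6 identities in catecholaminergic neurons, at 203 ± 59.6 CPM.

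Nitrergic neurons, which make nitric oxide, held the highest levels of NLGN1 and CNTNAP2. NLGN1 was 1314, 1058, 1706 and 1724 CPM in nitrergic neurons, against 693, 650, 771 and 858 CPM in neurons without this identity. CNTNAP2 was 1179, 827, 1382 and 1608 CPM in nitrergic and 557, 467, 634 and 550 CPM in other neurons. For both genes every nitrergic sample lay above every sample of the other neurons. The nitrergic level of CNTNAP2 still overlapped with the next identity, cholinergic (826 ± 104 CPM), and that of NLGN1 with GABAergic neurons (1133 ± 206 CPM).

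CNTNAP4 was also highest on average in nitrergic neurons, at 63.9 ± 50.7 CPM against 19.0 ± 7.29 CPM in other neurons, but on few UMIs. Its nitrergic sums were 96, 104, 120 and 119 UMIs, and 10 nuclei held 49.0% to 80.8% of them. NRXN2, NLGN2 and CNTNAP1 differed little, with means over the 6 identities of 71.7 to 85.4, 25.5 to 33.7 and 19.0 to 22.6 CPM.

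**Figure D3:**
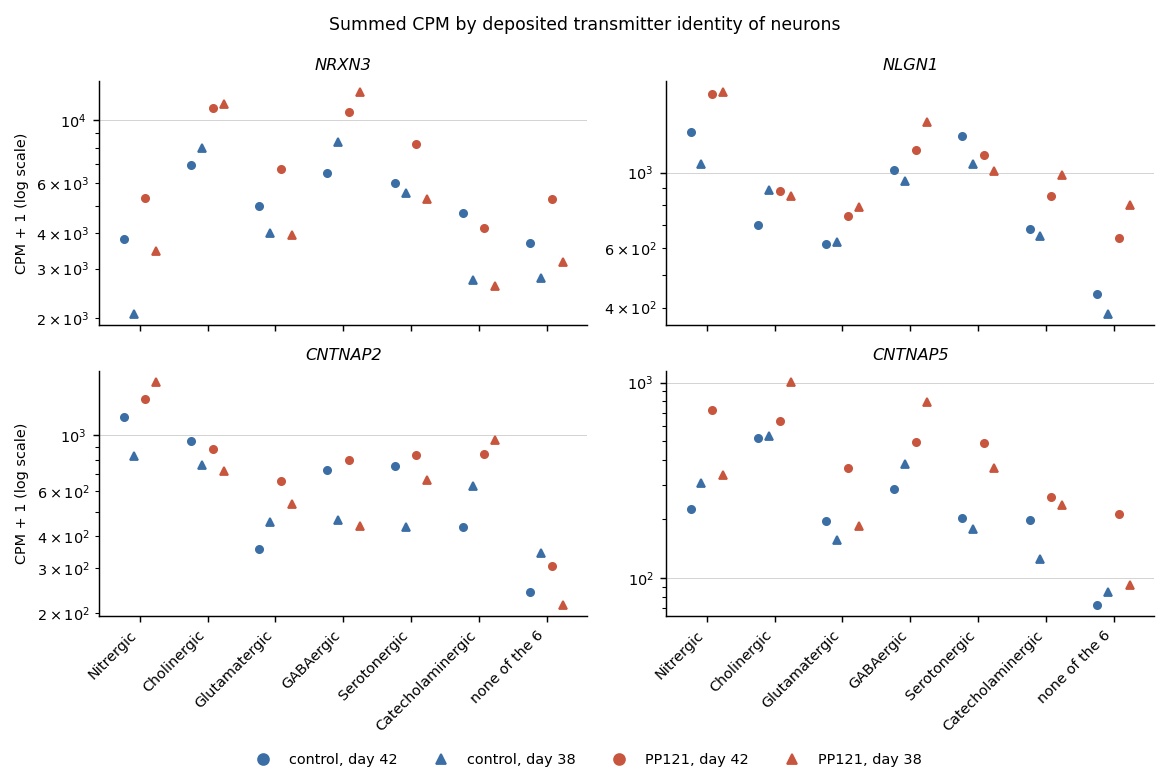
Level (CPM + 1, log axis) of NRXN3, NLGN1, CNTNAP2 and CNTNAP5 by deposited transmitter identity of the neurons, 1 point per sample (blue control, red PP121, circles day 42, triangles day 38), with neurons of none of the 6 identities at the right. NRXN3 is highest in GABAergic and cholinergic neurons, and NLGN1 and CNTNAP2 are highest in nitrergic neurons.

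A definition of nitrergic neurons that does not use imputed values was tested with raw counts. Neurons with at least 1 UMI of NOS1, the neuronal nitric oxide synthase, numbered 52, 30, 42 and 20. NLGN1 was 990, 830, 921 and 1399 CPM in them and 808, 719, 933 and 908 CPM in neurons without such a UMI. CNTNAP2 was 780, 730, 611 and 1564 CPM against 676, 519, 752 and 658 CPM. Both were higher with a NOS1 UMI in 3 of the 4 samples. With the sample as a block, edgeR's quasi-likelihood test called 69 of 17084 genes (0.404%) and 0 of the 9 genes, of which 2 had an unadjusted p below 0.05, and DESeq2 called 41 genes (0.24%) and also 0 of the 9. The log2 difference was 0.26 ± 0.12 for NLGN1 (SE, adjusted p = 0.76) and 0.40 ± 0.16 for CNTNAP2 (adjusted p = 0.57). Without PP121 replicate 2 they were 0.12 and 0.09, and with at least 2 NOS1 UMIs 0.50 (adjusted p = 0.46) and 0.76 (adjusted p = 0.073), where 4 of the 9 had an unadjusted p below 0.05. Neurons with a NOS1 UMI were deeper, with medians of 8308.5 to 10520 UMIs against 7153.5 to 8019.5, and the part of depth in these values was not tested. A member of the partner list described below, the postsynaptic scaffold DLGAP2, was called higher in these neurons (0.99 ± 0.22, adjusted p = 0.026), but not by DESeq2 (adjusted p = 0.14).

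The genes whose levels were most alike over the 17 class sums with at least 100 nuclei were named for each gene by Pearson's r of log2(CPM + 1). NRXN3 was followed most closely by SLC6A5, a glycine transporter (r = 0.98), and NRXN2 by SCRT2 (0.98), MIR124-2HG (0.97) and NOL4 (0.96). NLGN1 was most like MYO9A (0.97), CNTNAP2 had MDGA2 (0.95), a regulator of neuroligins, among its closest 3 genes, and CNTNAP5 was most like CELF4 (0.97), DPF3 (0.96) and MYT1L (0.96). ANO4 (0.94), MYO16 (0.92) and DPP6 (0.92) were nearest to CNTNAP4. TECPR1 (0.94), TRMT61B (0.90) and ATAT1 (0.90) came nearest to NLGN2, and B3GNTL1, CARMIL1 and RNF213 (all 0.94) to CNTNAP3. The nearest gene to CNTNAP1 was EZH1 (0.91), which lies on the opposite strand of chromosome 17 with 281 bases between the ends of both genes, and since strand and intron counting are not stated, reads of these neighbours may not be separable. The sums share 4 libraries and differ in class, so these coefficients are given without a test.

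The central comparison of the study is PP121 against control. In enteric neurons, NLGN1 and CNTNAP2 stood higher in both PP121 samples than in either control, and CNTNAP5 was higher with PP121 on each day, at 405 against 250 CPM on day 42 and 234 against 198 CPM on day 38. NRXN3 went in opposite directions, with 1.24 times the control level on day 42 and 0.933 times on day 38. CNTNAP4 did too (0.708 and 1.74 times). NRXN2, NLGN2 and CNTNAP1 were within 0.911 to 0.999 of the control on each day. In all, 4 of the 9 genes did not overlap between the groups (NLGN1, CNTNAP2 and CNTNAP3 higher, CNTNAP1 lower), and 45.1% of the 21243 genes tested did not overlap either.

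Without pairing, edgeR's quasi-likelihood test called 0 genes (0%) in neurons, 2549 genes had an unadjusted p below 0.05 and none of the 9 was among them, and DESeq2 called 102 genes (0.48%) and none of the 9. Since the replicate number marks a shared day, the samples were also paired by it. With this replicate block, 3153 genes (14.8%) were called, and 3 of the 9 genes were higher with PP121. NLGN1 was higher by 0.31 ± 0.08 on the log2 scale (SE, adjusted p = 0.012), CNTNAP2 by 0.30 ± 0.09 (adjusted p = 0.020) and CNTNAP5 by 0.51 ± 0.10 (adjusted p = 5.8e-04). The median log2 difference was 0.15 over the 9 genes and -0.01 over all genes. NRXN3 gave 0.15 ± 0.09 (adjusted p = 0.30) in the same fit, and -0.19 in the unpaired fit without PP121 replicate 1. CNTNAP5 in the unpaired fit was 0.13 without PP121 replicate 1 and 0.87 without PP121 replicate 2 (adjusted p = 0.016, with 0.686% of genes called).

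The paired fit leaves 1 residual degree of freedom, so the spread of a gene was taken mostly from all genes together, with a prior of 26.2 degrees of freedom. A fit that lets single genes depart from the common spread called NLGN1, CNTNAP2 and CNTNAP5 too (adjusted p = 0.0075, 0.015 and 0.0028), whereas DESeq2 with the same block called CNTNAP5 alone (640 genes, 3.01%, adjusted p = 0.016, against 0.11 for NLGN1 and 0.16 for CNTNAP2). When the nuclei of all 4 samples were clustered jointly and neurons were taken from those clusters, the block fit called 578 genes (2.73%) and none of the 9, with 0.22 for NLGN1, 0.25 for CNTNAP2 and 0.43 for CNTNAP5. In that clustering, 303 of 2301 and 225 of 1250 neurons of the controls, but 78 of 2030 and 28 of 976 neurons with PP121, fell among progenitor 1, and the part of this in the result was not tested.

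The length of the genes moved with the result. Of the 378 genes tested that span 500 kb or more, 42.9% were higher with PP121 in the paired fit of neurons, with a median log2 difference of 0.25, against 4.90% of genes under 100 kb. NRXN3, NLGN1, CNTNAP2 and CNTNAP5 all belong to the longest group, and 3 of these 4 were called higher. The part of gene length in the difference was not tested.

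The share of neurons with a UMI, after each nucleus was thinned to 2000 UMIs, gave a view that does not depend on nuclei with many copies. NLGN1 was found in 55.1%, 54.0%, 61.5% and 56.9% of neurons, and the PP121 samples lay above the controls. For CNTNAP2 the shares were 40.4%, 34.2%, 50.0% and 39.6%, and for CNTNAP5 21.5%, 15.6%, 26.0% and 14.7%, with overlap between the groups for both. In progenitor 1, whose median depth was 4854 to 5954 UMIs against 7210 to 8102 in neurons before thinning, the shares were 15.4% to 29.7% for NLGN1, 6.01% to 7.63% for CNTNAP2 and 0.332% to 2.81% for CNTNAP5. The exact two-sided permutation test over samples gave p = 0.33 for NLGN1, the smallest that 2 against 2 samples allow, and the adjusted p was 0.86 or higher for each of the 9 genes (n = 2 per group). NRXN3 was found in 85.5%, 64.6%, 78.0% and 48.6% of neurons. The PP121 sample of each day was the lower in share, with a difference of -7.49 percentage points for day 42 and -16.1 for day 38. Its CPM on day 42 was the higher, so share and CPM, which are unlike measures, differed there. The NRXN3 shares overlapped between the groups, so no order of the groups is read from them.

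**Figure D4:**
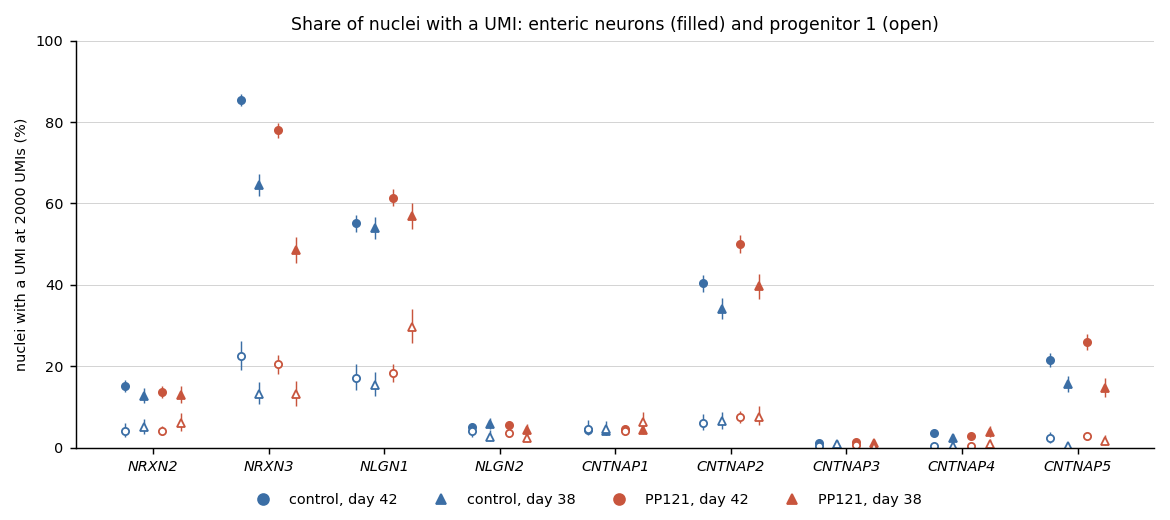
Share of nuclei with at least 1 UMI of each gene after thinning to 2000 UMIs (%), filled for enteric neurons and open for progenitor 1, 1 point per sample (blue control, red PP121, circles day 42, triangles day 38) with exact 95% Clopper-Pearson bars that cover counting error only. NRXN3 is found in 48.6% to 85.5% of neurons, and NLGN1 shows no overlap between control and PP121 neurons.

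In progenitors (both progenitor classes together), none of the 9 genes was called for PP121 with or without the block. NLGN1 was 501 and 376 CPM in the controls and 381 and 672 CPM with PP121, and NRXN3 was 585 and 350 against 388 and 319 CPM. CNTNAP2 (64.7 and 62.4 against 75.8 and 84.2 CPM) and CNTNAP4 (7.3 and 4.4 against 4.0 and 3.3 CPM) did not overlap, as 28.6% of the 20260 genes tested did not. EdgeR called 0 genes without the block, with 962 at an unadjusted p below 0.05, and DESeq2 called 43 (0.212%). With the block edgeR called 349 genes (1.72%) and DESeq2 109 (0.538%), and the joint classes with the block gave 584 (2.85%), none of the 9 among them. Whether PP121 acted differently on neurons and progenitors was tested as an interaction. EdgeR and DESeq2 called 0 of 21787 genes, with 709 and 378 at an unadjusted p below 0.05, and edgeR with the block also called 0, with 2123. In the block fit 2 of the 9 genes had an unadjusted p below 0.05, NRXN3 at 0.52 ± 0.19 (adjusted p = 0.42) and CNTNAP4 at 0.79 ± 0.32 (adjusted p = 0.47), both towards the neurons.

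In nitrergic neurons, each of the genes except NLGN2 and CNTNAP1 lay above the control on both days. For CNTNAP3 this rests on 26, 3, 29 and 4 UMIs, too few to read a direction from. Values in nitrergic neurons are set beside those of the other neurons, and the difference between these sets of neurons was not tested. NLGN1 was 1.30 and 1.63 times the control on days 42 and 38 in nitrergic neurons, and 1.11 and 1.32 times in the others. CNTNAP2 was 1.17 and 1.95 times against 1.14 and 1.18 times. NRXN3 was 1.39 and 1.68 times, at 5335 against 3825 CPM and 3466 against 2067 CPM, whereas the other neurons gave 1.28 and 0.862 times. CNTNAP5 was 3.25 times on day 42 (723 against 223 CPM) but 1.10 times on day 38 (337 against 306 CPM), and 1.41 and 1.33 times in the others. CNTNAP4 was 1.50 and 2.62 times, and 0.563 and 1.84 times in the others. NRXN2, NLGN1, CNTNAP2 and CNTNAP5 were higher and CNTNAP1 lower without overlap between the groups, 5 of 9 genes against 49.5% of the 15239 tested. The nitrergic identity was carried by 449, 230, 358 and 91 neurons, which was 9.95% of the typed neurons in PP121 replicate 2 and 18.6% to 19.6% in the other samples. In PP121 replicate 2, 10 of the 91 nuclei held 57.4% of the UMIs of NRXN3, 46.0% of NLGN1, 46.8% of CNTNAP2 and 75.2% of CNTNAP5. In control replicate 2, 10 of the 230 nuclei held 36.2%, 24.9%, 38.8% and 44.9%. The part of such nuclei in the day 38 ratios was not tested.

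EdgeR called 0 genes in nitrergic neurons without the block, although 2131 genes and 5 of the 9 had an unadjusted p below 0.05, and DESeq2 called 131 genes (0.86%), with NLGN1 among them (adjusted p = 0.041), while edgeR without a filter called 752 (2.66%) and 5 of the 9. With the block, 1594 genes (10.5%) were called and 5 of the 9 were higher: NRXN3 by 0.73 ± 0.10 on the log2 scale, NLGN1 by 0.66 ± 0.11, CNTNAP2 by 0.71 ± 0.12, CNTNAP4 by 1.11 ± 0.19 and CNTNAP5 by 1.09 ± 0.13, with adjusted p of 8.4e-07 or less. The median over the 9 genes was 0.71, against -0.01 over all genes. In this fit the prior was infinite, that is, every gene was given the common spread, so the error was not widened for a gene whose days disagree, such as CNTNAP5.

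With the spread freed for single genes, 1115 genes (7.32%) were called, and NRXN3, NLGN1 and CNTNAP4 stayed called (adjusted p = 2.3e-04, 0.0011 and 0.0033), whereas CNTNAP2 (0.13) and CNTNAP5 (0.59) did not. DESeq2 with the block called 160 genes (1.05%), with NRXN3 (adjusted p = 0.012) and NLGN1 (0.039) among them, and gave 0.054 for CNTNAP2, 0.57 for CNTNAP5 and no adjusted p for CNTNAP4. Leaving out 1 sample of the unpaired fit moved CNTNAP5 from 0.50 without PP121 replicate 1 to 1.55 without PP121 replicate 2, NRXN3 from 0.32 without control replicate 2 to 1.19 without control replicate 1, and CNTNAP4 from 0.13 without PP121 replicate 2 to 2.02 without PP121 replicate 1. CNTNAP2 moved from 0.47 without control replicate 2 to 0.97 without control replicate 1, and NLGN1 from 0.51 to 0.81 with the same samples left out. When neurons with a NOS1 UMI stood in for the identity, with 20 to 52 nuclei per sample, the block fit called 21 genes (0.28%) and none of the 5 members that passed its filter. The estimates there were 0.40 for NRXN3, 0.37 for NLGN1, 0.43 for CNTNAP2 and 0.64 for CNTNAP5.

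Gene length moved with the result here as well. Of the 363 tested genes that span 500 kb or more, 53.4% were called higher in the block fit, with a median log2 difference of 0.48, against 2.60% of the genes under 100 kb, and all 4 of the longest members were called. Their differences of 0.66 to 1.09 lay above that median, and a difference from other long genes was not tested.

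**Figure D5:**
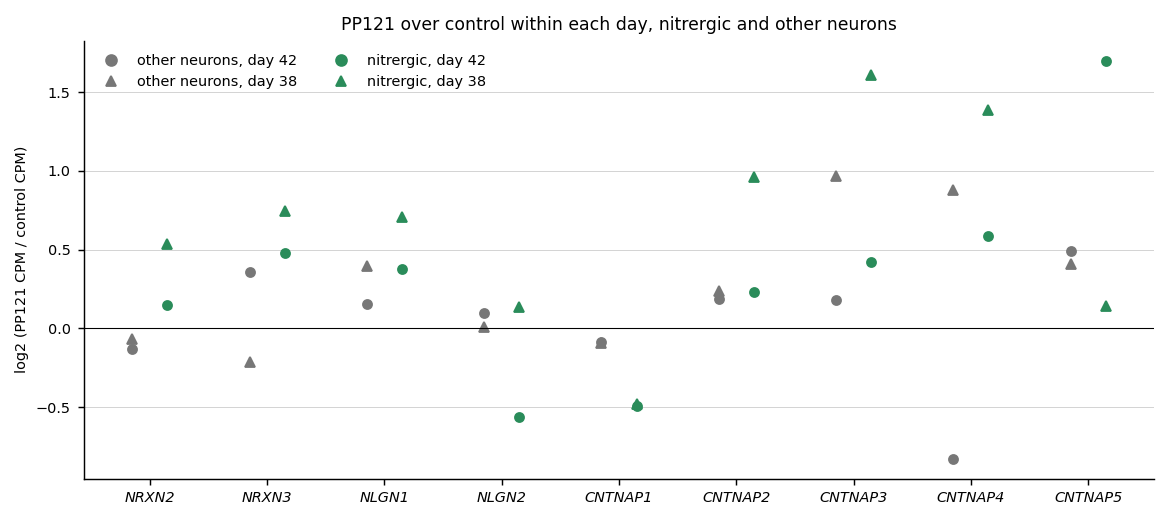
PP121 level over control level of each gene within each day, as log2 of the CPM ratio, for nitrergic (green) and other neurons (grey), circles for day 42 and triangles for day 38; each point compares 1 PP121 with 1 control sample. NRXN3, NLGN1, CNTNAP2, CNTNAP4 and CNTNAP5 lie above 0 on both days in nitrergic neurons, and CNTNAP5 differs most between the days.

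The day, or a differentiation that its samples may share, was a further source of difference. In enteric neurons NRXN3 was 5243 and 6505 CPM on day 42 against 4215 and 3935 CPM on day 38, and CNTNAP5 was 250 and 405 against 198 and 234 CPM. NRXN2, NRXN3, NLGN2 and CNTNAP5 were higher on day 42 without overlap, 4 of 9 genes against 39.0% of those tested. EdgeR without a treatment term called 0 genes, with 1574 at an unadjusted p below 0.05, NRXN3 among them, and DESeq2 called 59 (0.278%) and none of the 9. With treatment as a term, 2016 genes (9.49%) were called, and NRXN3 (0.46 ± 0.09, adjusted p = 7.3e-04) and CNTNAP5 (0.51 ± 0.10, adjusted p = 7.7e-04) were higher on day 42. Both were also called with the freed spread (adjusted p = 0.0076 and 0.0040, with 9% of genes called) and by DESeq2 with the same term (adjusted p = 0.033 and 0.036, with 2.19% called). Without PP121 replicate 1, the unpaired CNTNAP5 difference was 0.14.

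The makeup of the neurons moved with the day. GABAergic neurons, in which NRXN3 was highest, were 45.2% and 45.5% of the typed neurons on day 42 and 26.7% and 17.3% on day 38, and the part of this shift in the NRXN3 difference was not tested. In progenitors NRXN3, NLGN2, CNTNAP3 and CNTNAP5 were higher on day 42 without overlap, against 45.9% of genes tested, and none of the 9 was called. EdgeR called 0 genes there without the treatment term, with 2248 at an unadjusted p below 0.05, and DESeq2 called 106 (0.523%). With the term, edgeR called 2.99% of genes, or 3.02% with the freed spread, and DESeq2 0.809%. NLGN1 gave -0.36 there without the term, which became -0.72 without control replicate 2 (adjusted p = 0.028, with 4.73% of genes called) and 0.10 without PP121 replicate 2.

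The known partners of these proteins were followed in a list of 55 genes: other extracellular ligands of neurexins, regulators of neuroligins, pre- and postsynaptic scaffolds, partners of CNTNAP proteins and splicing regulators of neurexins. In neurons 52 of them were tested, and with the replicate block 14 were higher and 4 lower with PP121, against 7.98% of all genes higher and 6.86% lower. Of the genes that span 500 kb or more, 42.9% were called higher and 4.50% lower in this fit. The part of gene length in the partner counts was not tested. The unpaired fit called 0 of the 52, and DESeq2 with the block called 5 higher and 2 lower. Of the 10 tested partners of CNTNAP proteins, 5 were higher and 1 was lower with the block, 1 and 1 with DESeq2, and 1 and 0 with the joint classes and the block. CNTN4, a contactin, rose from 36.2 and 68.3 CPM in controls to 88.6 and 145 CPM (1.23 ± 0.10, adjusted p = 4.8e-09). EPB41L3, the cytoskeletal anchor of CNTNAP proteins, rose by 0.53 ± 0.12 (adjusted p = 0.0038), and CNTN1, the partner of CNTNAP1, fell from 263 and 225 to 189 and 134 CPM (-0.57 ± 0.09, adjusted p = 1.1e-04).

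DLGAP1 and DLGAP2, postsynaptic scaffolds of the same family, moved in opposite directions. DLGAP1 rose from 267 and 350 to 370 and 520 CPM (0.56 ± 0.09, adjusted p = 4.8e-05), and DLGAP2 fell from 113 and 51.2 to 55.4 and 27.8 CPM (-0.93 ± 0.11, adjusted p = 1.3e-06). MDGA1, which binds neuroligins and blocks their contact with neurexins, rose from 13.6 and 24.4 to 31.1 and 33.2 CPM (0.87 ± 0.15, adjusted p = 2.0e-04). Of the 20 tested extracellular partners of neurexins, 4 were higher and 1, CLSTN3, was lower with the block (-0.37 ± 0.11, adjusted p = 0.027). Over all genes, 7.98% were higher and 6.86% lower in that fit. DESeq2 with the block called 1 of these partners higher and 0 lower, against 2.17% and 0.847% of all genes. With the joint classes and the block, 6 partners were called higher and 1, DLGAP2, lower, against 2.05% and 0.674% of all genes.

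In nitrergic neurons 18 partners were higher and 2 lower of 48 tested with the block, against 6.79% of all genes higher and 3.67% lower. Of the genes that span 500 kb or more, 53.4% were called higher and 1.93% lower in this fit. The part of gene length in the partner counts was not tested here either. The unpaired fit called 0, the freed spread 13 higher and 0 lower, and DESeq2 with the block 3 higher and 0 lower. CNTN4 rose from 72.4 and 141 to 261 and 288 CPM (1.58 ± 0.14), MDGA1 from 30.9 and 59.4 to 67.0 and 91.7 CPM (1.01 ± 0.19) and ADGRL3, a latrophilin, from 1255 and 1310 to 2127 and 2232 CPM (0.89 ± 0.11). All 3 were also called with the freed spread, and CNTN4 and ADGRL3 by DESeq2 with the block. CNTN5 was called higher (0.82 ± 0.17), but its value reversed to -3.00 among neurons with a NOS1 UMI. DLGAP2 was called lower (-0.49 ± 0.16) in this fit with the infinite prior, at 82.2 against 170 CPM on day 42 but 101 against 99.5 CPM on day 38, was not called with the freed spread (adjusted p = 0.40), and reversed to 0.19 among neurons with a NOS1 UMI. In progenitors CNTN5 (1.39 ± 0.24, adjusted p = 2.6e-04) and CNTN4 (1.35 ± 0.23, adjusted p = 2.5e-04) were higher with the block, and no partner was lower. Over all genes, 1.16% were higher and 0.558% lower in that fit. CNTN5 was not called there with the freed spread (adjusted p = 0.47).

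Between the days, 8 partners were higher and 10 lower on day 42 in neurons with treatment as a term, against 3.68% of all genes higher and 5.81% lower. Of the genes that span 500 kb or more, 22.2% were called higher and 22.2% lower, and the part of gene length was not tested. The fit without the term called 0, and DESeq2 with the term called 6 higher and 3 lower. NXPH1, a secreted ligand of neurexins, stood at 158 and 167 CPM on day 42 and 73.6 and 58.6 CPM on day 38 (1.24 ± 0.11, adjusted p = 3.8e-09). LRRTM4, a postsynaptic ligand, was 1499 and 1045 against 683 and 690 CPM (0.81 ± 0.10, adjusted p = 1.7e-06), and DLGAP2 (1.02 ± 0.11) and CNTN5 (0.83 ± 0.12) were higher as well. CNTN4 was lower on day 42 (-0.87 ± 0.10, adjusted p = 1.2e-06), as were DLGAP1 (-0.50 ± 0.09), EPB41L3 (-0.48 ± 0.12) and MDGA1 (-0.51 ± 0.15, reversed to 0.07 without control replicate 1 in the fit without the term). In progenitors NXPH1 was again higher (1.24 ± 0.26, adjusted p = 0.0029), and CNTN4 (-0.98 ± 0.23, adjusted p = 0.0087) and ADGRL3 (-0.55 ± 0.15, adjusted p = 0.034) were among the 3 lower. Over all genes, 1.41% were higher and 1.58% lower in that fit. CNTN4 reversed to 0.11 there without PP121 replicate 2 and without the term.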

How the data were processed

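Nuclei of stage 1 ganglioids were profiled with the Chromium Next GEM 3′ v3.1 kit. The deposited files hold raw UMI counts per gene and nucleus, made by the authors with kallisto and bustools according to the methods, while the submitters' processing notes name Cell Ranger, Seurat 4.0.4 and GRCh38; whether intronic reads and strand were used is not given in the sources used here. The deposited percent values of mitochondrial and ribosomal UMIs per nucleus, made by the authors in Seurat, were not used in a test. Classes, subtypes, transmitter identities and days were taken from the deposited annotation, which keeps 14812 of 25306 nuclei. A further sample column in it disagrees with the labels for the control samples, and the labels were used. Counts were summed per sample and class and fitted across all genes with edgeR 4.0.16 in R 4.3.3 (quasi-likelihood, TMM, filterByExpr, Benjamini-Hochberg adjustment, threshold 0.05), with DESeq2 1.42.0 as an alternative. The p-values of the unpaired fits measure the spread between 2 samples per group. With the replicate block or the treatment term, the spread is how far the differences within the 2 pairs disagree. With 1 residual degree of freedom, edgeR took it mostly from all genes together, not from the gene itself. With the sample as a block, they measure the spread of differences within samples. In each fit the spread is shared at least in part across genes. In the edgeR block fit of nitrergic neurons without freed spread it is shared wholly. The p-values of that fit do not measure a gene's own disagreement between the pairs. Samples with the same number share a dated day, and the deviations of same-numbered samples correlated at 0.477 in neurons, 0.325 in progenitors and 0.210 in nitrergic neurons, so the replicate block was fitted as well. Other alternatives were filters, each sample left out, doublet candidates removed (the automatic threshold marked 2 nuclei, so the top 5% per sample by score were taken), joint clustering of all samples (scanpy 1.11.5, leidenalg 0.10.2), and thinning depths. Scripts were tested on simulated data. The paired fits with a freed spread or DESeq2, the gene length groups, the joint classes with the block and the doublet cut were added after seeing the data. Named genes were the 9 members, up to 4 partners each way per comparison and the 3 most alike genes with a mean of at least 10 CPM; clone-named transcripts are not printed. Exact permutation tests and Clopper-Pearson intervals used SciPy 1.17.1, and intervals and floors cover counting error only. Members and lists were chosen with earlier results of these data known. Some genes of these families and of the partner list are not reported here.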

Additional observations from a re-analysis of the deposited data

How the results depend on the processing

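With 2 samples per group, the number of genes called depended strongly on the fit. The main unpaired edgeR fits of PP121 and of day, with filterByExpr and all 4 samples, called 0 genes. For PP121 in neurons, DESeq2 called 102, no filter 69, the replicate block 3153, the block with freed spread 3144, the block with DESeq2 640 and the joint classes with the block 578, and 3, 3 and 1 of the 9 genes were called with the block, with freed spread and with DESeq2. In progenitors the same settings gave 43, 270, 349, 349, 109 and 584 genes. In nitrergic neurons DESeq2 called 131 genes (1 of the 9), no filter 752 (5), the block 1594 (5), freed spread 1115 (3), the block with DESeq2 160 (2), and neurons with a NOS1 UMI gave 2, or 21 with the block. For the day in neurons, DESeq2 called 59, no filter 158, and treatment as a term 2016, or 1911 with freed spread and 466 with DESeq2, with 2 of the 9 genes in each of these 3. In progenitors these were 106, 40, 606, 612 and 164. For neurons with a NOS1 UMI, the 69 genes became 41 with DESeq2, 177 with no filter, 18 with at least 10 counts in every sum and 234 with at least 2 NOS1 UMIs. The interaction gave 0 in every setting.

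Leaving out 1 sample gave 0 to 1402 genes and 0 to 1 of the 9 for PP121 in neurons (1402 without PP121 replicate 1; CNTNAP5 was called without PP121 replicate 2), 0 to 168 genes in progenitors, and 66 to 356 genes and 0 to 4 of the 9 in nitrergic neurons. For the day it gave 2 to 271 genes in neurons, and 2 to 1031 genes and 0 to 1 of the 9 in progenitors (NLGN1, without control replicate 2). In neurons, NRXN3 ranged from -0.19 to 0.47 and CNTNAP4 from -0.23 to 0.54. Between days, MDGA1 ranged from -1.16 to 0.0703 in neurons, and in progenitors CNTN4 from -1.90 to 0.11 and NLGN1 from -0.72 to 0.10. Differences in the share of neurons with a UMI ranged, in percentage points, from -0.0229 to 0.594 for CNTNAP3, -0.315 to 0.982 for CNTNAP4, -3.86 to 7.45 for CNTNAP5, -0.978 to 0.140 for NLGN2, -1.91 to 0.567 for NRXN2 and -26.5 to 2.94 for NRXN3. The CNTNAP1 share difference of 0.256 turned to -0.248 at 1000 UMIs, -0.341 at 4000 UMIs and -0.972 without thinning. In nitrergic neurons defined by a NOS1 UMI, CNTN5 turned to -3.04 (-3.00 with the block) and DLGAP2 to 0.12 (0.19 with the block). The cause was not tested for any of these. Nuclei number and UMI depth limit CNTNAP3 and CNTNAP4 most, since few UMIs came from few nuclei. The 4 long genes are limited as well in nitrergic neurons of PP121 replicate 2, where 10 nuclei held 46.0% to 75.2% of their UMIs.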
